A study of Mus musculus with 24 samples.

Results

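Granule neurons, the small excitatory cells that fill the inner layer of the cerebellar cortex, are specified and matured by a handful of DNA-binding proteins. The 10 genes described here encode such factors: Neurod1, Neurod2, Zic1, Zic2, Zic4, Pax6, Etv1, Nfia, Nfib and Nfix. They were taken as a named list, each symbol was matched to 1 Ensembl identifier in the count files, and all 10 were found among 37991 identifiers and were among the 15292 genes with enough reads to test. The mice were males of the inbred strain C57BL/6J, aged 7 or 79 weeks. RNA from whole cerebellum was sequenced in 2 libraries per age, and no transgene or treatment is named for either age. Of 24 samples in the series, 20 are genomic (for modified cytosines in cerebellum or cortex) and were not used here. Whether libraries of the same age were made from different mice is not stated in the labels, so a p-value here reflects only how far these libraries spread, and that spread may be technical.

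Neurod1 and Neurod2 are basic helix-loop-helix proteins. They bind E-boxes (short DNA sites) as partners of E proteins, and Id proteins block that partnering. Zic proteins bind DNA through zinc fingers and are needed for granule progenitors to expand. Pax6 carries a paired domain and a homeodomain and acts in progenitors and in their daughters as these migrate. Etv1 belongs to the PEA3 group of ETS factors and, with the nuclear factor I proteins Nfia, Nfib and Nfix, acts late, when granule neurons switch on synaptic genes such as Gabra6. Several of these genes are also active in other cells: nuclear factor I genes are active in astrocytes, Zic genes in cerebellar interneurons and meninges, and Pax6 in unipolar brush cells.

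The regulatory windows of Neurod1, Neurod2 and Etv1 are shown because these are the members whose RNA differed between the ages by the test used below. Each is the 250 bases before the annotated start in RefSeq (build GRCm38.p6, whereas the reads were aligned to mm9), on the strand of the gene. Capitals mark matches, on either strand, to an E-box of the kind NeuroD proteins bind (CAGATG), a nuclear factor I half-site (TTGGCA) or an ETS core (CCGGAA).
Neurod1, chr2:79456637-79456886, minus strand: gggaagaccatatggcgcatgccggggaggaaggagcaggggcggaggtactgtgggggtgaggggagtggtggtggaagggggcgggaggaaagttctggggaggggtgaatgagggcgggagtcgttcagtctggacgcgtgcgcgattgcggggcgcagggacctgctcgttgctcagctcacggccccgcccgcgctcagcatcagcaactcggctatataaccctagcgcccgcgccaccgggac
Neurod2, chr11:98329646-98329895, minus strand: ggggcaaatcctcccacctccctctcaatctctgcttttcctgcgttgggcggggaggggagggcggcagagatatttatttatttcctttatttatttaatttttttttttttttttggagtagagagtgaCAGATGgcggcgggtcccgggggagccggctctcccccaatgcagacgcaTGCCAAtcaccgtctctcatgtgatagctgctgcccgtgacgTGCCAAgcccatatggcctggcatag
Etv1, the farther upstream of 2 annotated starts, chr12:38779832-38780081, plus strand: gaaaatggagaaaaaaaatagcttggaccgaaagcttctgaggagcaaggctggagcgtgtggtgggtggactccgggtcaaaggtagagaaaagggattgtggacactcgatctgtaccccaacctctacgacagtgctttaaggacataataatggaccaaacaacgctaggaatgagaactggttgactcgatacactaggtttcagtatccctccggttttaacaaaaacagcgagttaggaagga

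The Neurod2 window held 1 E-box match, 118 bases before the start, and 2 nuclear factor I half-sites, 68 and 26 bases before it. No match overlapped another. The Neurod1 window and the upstream Etv1 window held no match to these letters. The window of the second Etv1 start held 1 E-box match, 194 bases before that start, and 1 half-site, 185 bases before it. Such matches are frequent: of 32851 windows of this length, 14.4% held the E-box, 12.3% the half-site and 12% the ETS core. CpG dinucleotides, the usual sites of cytosine methylation, numbered 22 in the Neurod1 window, 11 in that of Neurod2 and 9 in the upstream window of Etv1, but 1 in the window of its second start, against a median of 6. Of the members, 8 had a window in the table and Zic2 and Nfib had none.

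Counts assigned to genes ranged from 16367656 to 22826993 per library. For a gene without reads the level could be up to 0.187 CPM (read counts relative to the scaled library size), a limit that covers counting error only. One library stood apart. Choroid plexus markers summed to 5339 CPM in 79-week replicate 1 and to 15.7 to 36.6 CPM in the other 3 libraries. Calls for the members, their relatives and the related gene lists are therefore also given without that library where they differ. Calls for the marker lists of other cell types were not refitted without it. In edgeR's quasi-likelihood test, 8.84% of the genes tested had an adjusted p below 0.05, split into 4.17% that were higher in aged cerebellum and 4.68% that were lower. Without 7-week replicate 1 the same test called 0 genes in all (2610 before adjustment at 0.05, while DESeq2 called 235), so each call below is lost in that fit.

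The comparison asked how RNA levels of these factors differed between young adult and aged cerebellum. In edgeR, Etv1 and Neurod1 fell, Neurod2 rose, and the other 7 members were not called. DESeq2 made the same 3 calls and also called Zic1 and Zic2 lower, and limma-voom added Zic1 alone. In CPM summed over the 10 genes, the libraries stood at 4270.2 and 4329 at 7 weeks and at 3852 and 3712 at 79 weeks. The members called, 1 higher and 2 lower, were 30.0% of the list, set against 8.84% of all genes tested and 16.9% of the 3745 genes counted at least as deeply as Zic4, the least counted member. The ages did not overlap for 7 members, 1 higher and 6 lower at 79 weeks. That was also so for 57.7% of all genes tested, 29% higher and 28.8% lower, and for 68.6% of the deeply counted ones. The median log2 fold change was -0.14 over the members and 0.01 over all genes tested. The members were chosen with earlier results of these data known, so these shares only describe them. In RNA from whole tissue, fewer cells of a type and less RNA per cell cannot be told apart.

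**Figure D1:**
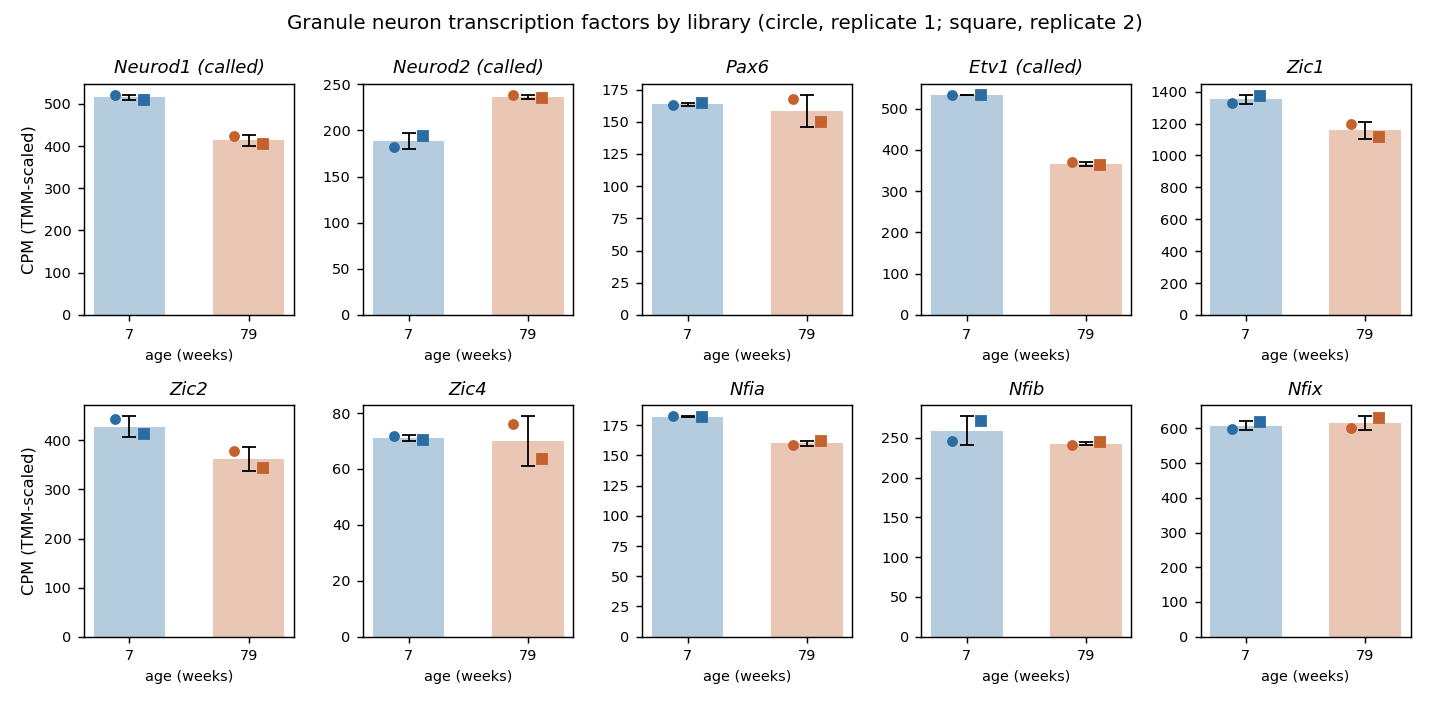
TMM-scaled CPM (vertical axes, each from 0) of the 10 granule neuron transcription factors at 7 and 79 weeks, with a circle for replicate 1, a square for replicate 2, bars for the mean and error bars for the SD of 2 libraries. The ages lie well apart for Etv1, Neurod1 and Neurod2, while the points of Zic4, Pax6 and Nfix overlap.

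Etv1 showed the largest difference among the 10. It stood at 533.6 and 532.7 CPM in 7-week replicates 1 and 2 and at 370.0 and 363 CPM in 79-week replicates 1 and 2. Both aged libraries lay far below both young ones, and libraries of the same age were nearly equal, in the young pair closer (CV 0.114%) than the counting error of its reads (1.08% and 0.951%). The mean went from 533.2 ± 0.61 to 366 ± 5.16 CPM (SD, n = 2 per age), a level 0.687 times that at 7 weeks. The log2 fold change was -0.54 (SE 0.055, edgeR adjusted p = 0.00414), and by its p-value Etv1 ranked 55 among all genes tested. Each library left out in turn gave a log2 fold change from -0.56 to -0.53, and the call was lost without 7-week replicate 1 (adjusted p = 0.0893 in edgeR, 1.37e-06 in DESeq2).

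Its relatives of the PEA3 group, Etv4 and Etv5, are transcription factors that act downstream of fibroblast growth factor signals. Etv5 stood at 84.2 and 86.6 CPM in the young libraries and at 51.9 and 68.0 CPM in the aged ones. It fell by 0.51 on the log2 scale (SE 0.12, edgeR adjusted p = 0.0391), more in 79-week replicate 1 than in replicate 2. Its log2 fold change was -0.33 when 79-week replicate 1 was left out and -0.73 when replicate 2 was. Its call was lost in edgeR without either 7-week replicate 1 or 7-week replicate 2 (adjusted p = 0.227 and 0.197) and with robust dispersion estimates (0.0565). DESeq2 called it with the 4 libraries (adjusted p = 0.00138) but not without 79-week replicate 1 (0.285), 7-week replicate 1 (0.194) or 7-week replicate 2 (0.237). Etv4 stood at 20.4 and 21.0 CPM, then at 14.5 and 15.5 CPM, and fell by 0.46 (SE 0.098, edgeR adjusted p = 0.0319). DESeq2 did not call Etv4 (adjusted p = 0.0875), and in edgeR its call was also lost without 7-week replicate 1, 7-week replicate 2 or 79-week replicate 1 (adjusted p = 0.187, 0.154 and 0.0508). All 3 genes of the group were thus called lower by edgeR with the 4 libraries, and Etv1 was the one whose fold change moved least when a library was left out.

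The pair of NeuroD genes was called in opposite directions. Neurod1, which granule neurons need to differentiate and survive, stood at 519.8 and 510.2 CPM at 7 weeks and at 423 and 405 CPM at 79 weeks. Neurod2, its close relative and also needed for granule neuron survival, stood at 182 and 194 CPM at 7 weeks and at 238 and 235 CPM at 79 weeks. Neither gene's ages overlapped.

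Neurod1 fell by 0.31 on the log2 scale (SE 0.058, edgeR adjusted p = 0.0205) and Neurod2 rose 1.26-fold (log2 fold change 0.33, SE 0.052, edgeR adjusted p = 0.0142). Left-out libraries moved the log2 fold change between -0.35 and -0.29 for Neurod1 and between 0.28 and 0.37 for Neurod2. In edgeR both calls were lost without 7-week replicate 1 (adjusted p = 0.158 and 0.138) and also when replicate 2 of that age was left out (adjusted p = 0.0916 and 0.0599). DESeq2 kept Neurod1 in each such fit but not Neurod2 without 7-week replicate 1, 79-week replicate 1 or 79-week replicate 2 (adjusted p = 0.282, 0.095 and 0.0565).

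A ratio of raw counts within a library does not depend on how libraries are scaled. Reads of Neurod2 per read of Neurod1 numbered 0.350 and 0.381 in the young libraries and 0.562 and 0.580 in the aged ones. Both aged libraries lay above both young ones, and the ratio was 1.56 times as high at 79 weeks. Of 5 such ratios within families this moved most, with an exact two-sided permutation p of 0.333, the smallest that 2 libraries against 2 can give (adjusted p = 0.416 over the 5 ratios). Any one library left out gave a log2 change of the ratio from 0.58 to 0.70.

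The other NeuroD genes were rare. Neurod6, best known from forebrain pyramidal neurons, stood at 7.66 and 9.26 CPM at 7 weeks and at 7.03 and 6.39 CPM at 79 weeks (log2 fold change -0.34, SE 0.18, edgeR adjusted p = 0.274). Neurod4 had 0 reads in both young libraries and was at 0.103 and 0.0432 CPM in the aged ones, below the limit for a count of 0, and was not tested.

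E proteins, the partners of NeuroD factors, and the Id proteins that compete for them were not called in 7 of 7 genes by edgeR (3 had an unadjusted p under 0.05, and DESeq2 called 0). Their median log2 fold change was 0.16. Tcf4, the E protein gene with the most reads, stood at 396 and 436 CPM at 7 weeks and at 470.2 and 467 CPM at 79 weeks (edgeR adjusted p = 0.142). Id2, an Id gene, stood at 165 and 178 CPM, then at 164 and 169 CPM (edgeR adjusted p = 0.711).

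**Figure D2:**
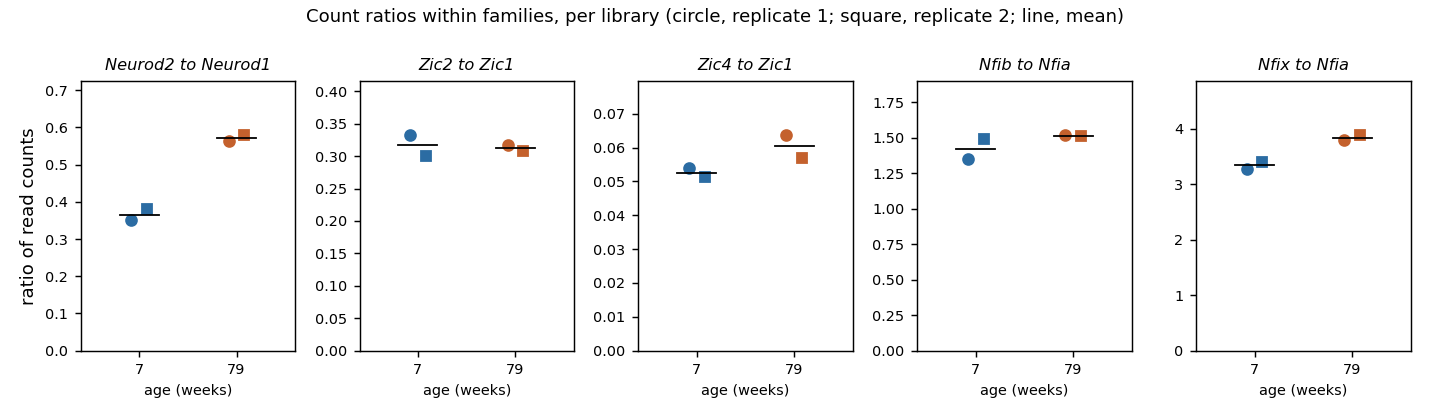
Ratio of raw read counts of 2 genes of 1 family within each library (vertical axes, from 0) at 7 and 79 weeks, with a circle for replicate 1, a square for replicate 2 and a line for the mean. The Neurod2 to Neurod1 ratio goes from 0.350 and 0.381 to 0.562 and 0.580, while the Zic2 to Zic1 ratios of the ages overlap.

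Zic1, Zic2 and Zic4 were not called by edgeR. Zic1 stood at 1331 and 1373 CPM at 7 weeks and at 1196 and 1118 CPM at 79 weeks. Zic2 stood at 443 and 413 CPM, then at 379 and 344 CPM. For both genes the aged libraries lay below the young ones, with 79-week replicate 2 the lowest.

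The log2 fold change was -0.22 for Zic1 (SE 0.063, edgeR adjusted p = 0.0678) and -0.24 for Zic2 (SE 0.069, edgeR adjusted p = 0.0732). Both lay near the threshold. DESeq2 called them lower (adjusted p = 0.00388 and 0.0142), whereas edgeR with library size scaling did not (0.129 and 0.137). Of 10 alternatives that used the 4 libraries, 4 called each gene. Without 79-week replicate 1, with its high choroid plexus markers, edgeR called both lower, at log2 fold changes of -0.27 and -0.31. When 79-week replicate 2 was left out instead, the log2 fold change was -0.18 for both. Reads of Zic2 per read of Zic1 stood at 0.333 and 0.301 at 7 weeks and at 0.317 and 0.308 at 79 weeks. These ratios overlapped (exact permutation p = 1, adjusted p = 1), and the means of the ages differed by -0.02 on the log2 scale.

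Zic4 is annotated next to Zic1, and the spans of both genes overlap. It stood at 71.9 and 70.3 CPM at 7 weeks and at 76.2 and 63.7 CPM at 79 weeks. The young libraries lay between the aged ones, and the log2 fold change was -0.02 (95% interval -0.24 to 0.19, edgeR adjusted p = 0.892). It was 0.10 without 79-week replicate 2 and 0.03 with library size scaling, so no direction is given. Reads of Zic4 per 1 of Zic1 stood at 0.0540 and 0.0512 in the young libraries and at 0.0637 and 0.0570 in the aged ones, without overlap (exact permutation p = 0.333, adjusted p = 0.416 over the 5 ratios).

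Zic5, a relative annotated near Zic2, stood at 64.7 and 67.8 CPM at 7 weeks and at 78.9 and 72.5 CPM at 79 weeks (log2 fold change 0.19, SE 0.070, edgeR adjusted p = 0.132). Markers of meninges and fibroblasts, cells that also transcribe Zic genes, summed to 89.6 and 98.0 CPM at 7 weeks and to 110.9 and 74.8 CPM in 79-week replicates 1 and 2. Of the 8 markers of that list 1 was called (12.5%, against 8.84% of all genes tested). It was Col3a1, which was lower, and no marker was at 0 in every library. Their part in the Zic values was not tested.

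Pax6 was not called. It stood at 163 and 164 CPM at 7 weeks and at 167 and 149.5 CPM at 79 weeks, so the young libraries again lay between the aged ones. The log2 fold change was -0.05 (95% interval -0.19 to 0.10, edgeR adjusted p = 0.692), was 0.03 without 79-week replicate 2 and was 0.01 with library size scaling, so no direction is given. Eomes, the transcription factor that marks unipolar brush cells, which also hold Pax6, stood at 32.1 ± 2.99 CPM at 7 weeks and at 29.4 ± 7.57 CPM at 79 weeks (edgeR adjusted p = 0.677). That gene was named outside the rule for named genes, after its values were seen.

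Nuclear factor I genes were not called in 3 of 3 members. Nfia, which regulates late granule neuron genes and is also a gene of astrocytes, stood at 182.3 and 182.0 CPM at 7 weeks and at 159 and 162 CPM at 79 weeks. Its ages did not overlap and libraries of an age were close. The log2 fold change was -0.18 (SE 0.047, edgeR adjusted p = 0.0543), just above the threshold. It passed in 3 of 10 alternatives that used the 4 libraries. These were robust dispersion estimates (adjusted p = 0.0415), a filter at 1 CPM (0.0495) and no low-count filter (0.0229). Among those it did not pass were DESeq2 (0.111), limma-voom (0.0718) and library size scaling (0.123).

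Nfib, another late factor, stood at 246 and 272 CPM, then at 241 and 244 CPM. Its log2 fold change was -0.09 (95% interval -0.23 to 0.05, edgeR adjusted p = 0.364), and 7-week replicate 2 was the library that stood highest. Nfix, which helps time the maturation of neural precursors, stood at 598 and 618 CPM at 7 weeks and at 602 and 629 CPM at 79 weeks. The ages overlapped (log2 fold change 0.02, 95% interval -0.12 to 0.16, edgeR adjusted p = 0.878), with a change of sign to -0.01 without 7-week replicate 1 and -0.02 without 79-week replicate 2. Nfic, the remaining gene of the family, stood at 367 and 393 CPM, then at 361 and 342 CPM (log2 fold change -0.11, SE 0.061, edgeR adjusted p = 0.295).

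Reads of Nfix per read of Nfia numbered 3.28 and 3.40 at 7 weeks and 3.79 and 3.89 at 79 weeks. The ages were apart, with a ratio 1.15 times as high at 79 weeks (exact permutation p = 0.333, adjusted p = 0.416 over the 5 ratios). Reads of Nfib per read of Nfia stood at 1.35 and 1.49, then at 1.52 and 1.51, without overlap but with the upper young library close to the aged ones. Markers of Bergmann glia and astrocytes, where these genes are active too, summed to 3185 and 3487 CPM at 7 weeks and to 2920.0 and 3077 CPM at 79 weeks. Of these 8 markers 1 was called higher and 2 lower (37.5%, against 8.84% of all genes tested). None was at 0 in every library. Their part in the values of Nfia, Nfib and Nfix was not tested.

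**Figure D3:**
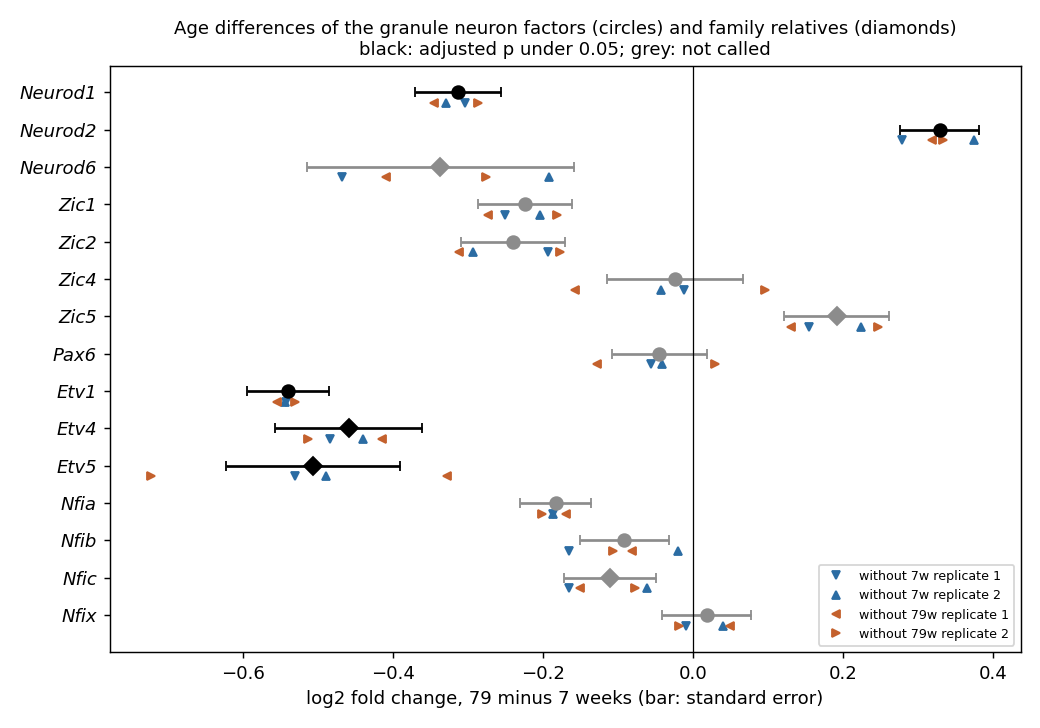
Log2 fold change at 79 minus 7 weeks (horizontal axis, with standard error) of the 10 factors (circles) and 5 family relatives (diamonds), black where edgeR's adjusted p was under 0.05, with small triangles for the value when 1 library was left out. Etv1, Etv4, Etv5 and Neurod1 lie left of 0 and Neurod2 right of it under each library left out. Of the genes not called, Neurod6, Zic1, Zic2, Nfia, Nfib and Nfic also stay left and Zic5 stays right. The triangles of Zic4, Pax6 and Nfix fall on both sides.

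Genes that mature granule neurons use to signal were measured beside their factors. Of 14 such effector genes 8 fell (57.1%) and 6 were not called, with a median log2 fold change of -0.33. Over all genes tested 8.84% were called, 4.68% as lower, and the median was 0.01. Among the 3745 genes counted at least as deeply as Zic4, 16.9% were called in either direction. The effector list was chosen with earlier results of these data known, so its share only describes it. Gabra6, a GABA receptor subunit particular to granule neurons and a known target of nuclear factor I, stood at 888 and 868 CPM at 7 weeks and at 590.4 and 591 CPM at 79 weeks (log2 fold change -0.57, SE 0.057, edgeR adjusted p = 0.00402). Kcnd2, a potassium channel gene, fell by 0.56 (SE 0.069, edgeR adjusted p = 0.00734), Cadps2, which serves release of dense-core vesicles, fell by 0.47 (SE 0.054, edgeR adjusted p = 0.00552), and Cbln1, a synapse organiser, fell by 0.39 (SE 0.057, edgeR adjusted p = 0.0113). Without 7-week replicate 2 edgeR called 4 of the 14 and did not call Kcnd2 (adjusted p = 0.0548), and without 7-week replicate 1 it called 0 of them (10 at an unadjusted p under 0.05).

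Summed over these 14 genes, the level was 9001 and 8612 CPM at 7 weeks and 7377 and 7077 CPM at 79 weeks, or 0.821 times the young mean. Side by side with that figure, Etv1 stood at 0.687 times its young level, Neurod1 at 0.804, Zic2 at 0.846, Zic1 at 0.856, Nfia at 0.880, Nfib at 0.938, Pax6 at 0.969, Zic4 at 0.983, Nfix at 1.01 and Neurod2 at 1.26. The factors were thus spread from below to above the summed level of the effector genes.

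Late maturation genes, a list of 7 that shares Gabra6 and Grin2c with the effector genes, had 2 genes lower and 5 not called. That was 28.6% called, against 8.84% of all genes tested, and Gabra6 was already counted among the effector genes. The second gene called was Wnt7a, a secreted signal that granule neurons send to mossy fibres. It stood at 104 and 84.4 CPM, then at 73.6 and 61.8 CPM (log2 fold change -0.48, SE 0.12, edgeR adjusted p = 0.0484), and its call was lost with library size scaling (adjusted p = 0.0673), in limma-voom (0.0561) and in edgeR without 7-week replicate 1 or 7-week replicate 2 (0.286 and 0.0781). Without 7-week replicate 1 its log2 fold change was -0.32.

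Other transcription factors of mature granule neurons were not called in 7 of 7 genes by edgeR (3 had an unadjusted p under 0.05, and DESeq2 called 0), with a median log2 fold change of -0.13. Mef2d and Mef2a, which respond to neuronal activity, stood at 0.917 and 0.929 times their young levels (edgeR adjusted p = 0.145 and 0.229). Without 79-week replicate 1, and likewise without 79-week replicate 2, edgeR called 1 of the 7 lower.

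Factors of granule progenitors were not called in 8 tested genes by edgeR (2 had an unadjusted p under 0.05, and DESeq2 called 0). Barhl2 and Gli1, those with the highest mean level, stood at 0.900 and 1.06 times their young levels (edgeR adjusted p = 0.323 and 0.654). Atoh1, the gene that defines granule progenitors, had 1 read in 7-week replicate 1 and 0 in the other 3 libraries, and Nhlh1, a gene of newborn granule neurons, had 1 read in each library. Both were named after their values were seen. Each was thus at or under the limit of 3 reads, while the 10 factors described here had at least 1155 reads in each library.

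**Figure D4:**
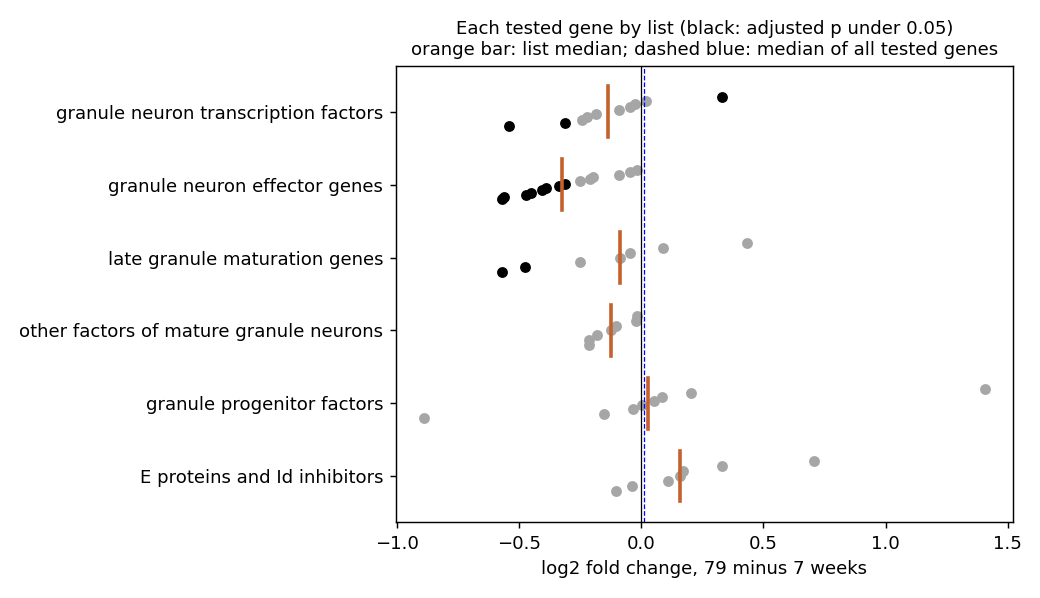
Log2 fold change at 79 minus 7 weeks (horizontal axis) of each tested gene in 6 lists, black where edgeR's adjusted p was under 0.05, with an orange bar at each list's median and a dashed line at the median of all genes tested. The 8 effector genes called lie left of 0 and their list has a median of -0.33, and the 10 factors have a median of -0.14, with Neurod2 alone among their called genes on the right.

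Markers of other cerebellar cells were summed in each library. Calls in this paragraph and the next are by edgeR unless DESeq2 is named. Over all genes tested edgeR called 8.84%, with 4.17% higher and 4.68% lower. Those of Purkinje cells stood at 10159 and 10066 CPM at 7 weeks and at 8237 and 8480 CPM at 79 weeks, with 4 of 8 lower and 4 not called. Inhibitory interneuron markers summed to 2251 and 2466 CPM, then to 2385 and 2518 CPM, and overlapped, with 8 of 8 not called by edgeR (2 had an unadjusted p under 0.05, and DESeq2 called 1 higher). Unipolar brush cell markers summed to 705 and 662 CPM, then to 550 and 599 CPM, with 2 of 5 higher and 1 lower. Microglial markers summed to 69.3 and 79.1 CPM, then to 118 and 151 CPM, with 3 of 6 higher. Markers of brainstem and midbrain neurons summed to 2.37 and 15.4 CPM, then to 24.9 and 38.6 CPM. Of these 6 markers 2 could be tested. Th was called higher by edgeR, whereas DESeq2 called 0 genes of this list. Its level was 1.68 and 7.91 CPM in 7-week replicates 1 and 2. Th made up most of the sum at 79 weeks, at 22.8 and 36.3 CPM. Slc17a6 was not called (log2 fold change -1.34), and Slc6a2 and Chat were at 0 in every library. Th and Slc17a6 were named after their values were seen. The part of these cells in the values of Etv1, Neurod1 and Neurod2 was not tested.

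Markers of myelinating oligodendrocytes, the cells that wrap axons in myelin, summed to 5911 and 5554 CPM at 7 weeks and to 3522 and 4980.2 CPM at 79 weeks, 0.742 times the young mean, with 5 of 8 lower and 3 not called. Oligodendrocyte precursor markers summed to 175 and 192 CPM, then to 125 and 159 CPM (0.773 times the young mean), with 2 of 6 lower. Both lists were lowest in 79-week replicate 1. Ependymal markers summed to 6.16 and 5.01 CPM, then to 33.4 and 10.2 CPM, with 1 of 2 tested higher, and Ccdc153 and Tmem212 had no read at 7 weeks. Endothelial markers summed to 109.9 and 113 CPM, then to 121 and 143 CPM, with 5 of 5 not called by edgeR (2 had an unadjusted p under 0.05, and DESeq2 called 0). None of the markers of these 4 cell types was at 0 in every library, and their part in the values of the granule neuron factors was not tested.

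How reads were assigned limits some members more than others. In the RefSeq annotation of GRCm38.p6, Neurod1, Neurod2, Zic2 and Etv1 overlapped no other gene. Pax6 overlapped Pax6os1 and Elp4, Nfia overlapped 5 genes, Nfib overlapped 1 and Nfix overlapped Lyl1 and 1 other gene. These overlaps are of whole gene spans. The strand setting of the counting is not given in the sources used here. Whether reads from the shared stretches were assigned to the right gene is therefore not known.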

How the data were processed

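The authors deposited 1 file of raw read counts per Ensembl gene for each of the 4 cerebellar RNA libraries. Cutadapt, STAR, HTSeq and the build mm9 are named in the submitters' processing notes, without versions. Per the labels, RNA was taken with Trizol and libraries were made with the Universal Plus mRNA-Seq kit. HTSeq's summary lines were removed; reads placed at more than 1 site, 8.02% to 8.25% of each library, were not counted by the authors.

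Genes were kept by filterByExpr (minimum count 10, minimum total 15), scaled by TMM (factors 0.9812 to 1.023) and compared as 79 minus 7 weeks by the quasi-likelihood F test of edgeR 4.0.16 in R 4.3.3, with no covariates and Benjamini-Hochberg adjustment over 15292 genes at 0.05. Standard errors and 95% intervals come from that fit and are not adjusted. Levels are CPM, over 2 libraries per age, and were not compared between genes, whose lengths were not used. Alternatives were other scalings and filters, DESeq2 1.42.0, limma-voom (limma 3.58.1), robust dispersion, a replicate block and each library left out, which leaves 1 library at its age, assumed to vary like the others. The pipeline was tested on simulated data. The 10 members and all gene lists were chosen with earlier results of these data known. Named were the members, their family relatives, up to 4 called genes of each other list by smallest p and, where none was called, the 2 with the highest mean CPM. Some genes of these lists are not reported here.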

Additional observations from a re-analysis of the deposited data

How the results depend on the processing

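Etv1, Neurod1 and Neurod2 kept their direction in every alternative run and stayed called in all 10 of those that used the 4 libraries. Of 180 values of the 10 members under alternatives, 147 kept direction and side of the threshold, 8 lost the call, 15 gained it and 10 changed sign. The sign changes were those of Zic4 (0.030 with library size scaling, 0.096 in edgeR and 0.093 in DESeq2 when 79-week replicate 2 was left out), Pax6 (0.0086, 0.029 and 0.027 in the same fits) and Nfix (-0.0099 in edgeR and -0.012 in DESeq2 when 7-week replicate 1 was left out, -0.019 and -0.022 when 79-week replicate 2 was). In edgeR, leaving out a library gave from -0.16 to 0.096 for Zic4, from -0.13 to 0.029 for Pax6 and from -0.019 to 0.049 for Nfix. The cause was not tested.

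The number of members called was 3 and became 6 with no low-count filter or with robust dispersion estimates and 5 in DESeq2. Without 1 library it ran from 0 to 5 in edgeR and DESeq2. Over all genes, 1352 calls became 3051 with no low-count filter and ran from 0 to 2425 without 1 library in edgeR; in DESeq2 the count was 235, 421, 379 and 654 when 7-week replicates 1 and 2 and 79-week replicates 1 and 2 were left out. Library size scaling moved the split of calls from 47.1% to 65.1% higher. With 1 library left out, calls ran from 0 to 2 among the 6 family relatives, from 0 to 10 among the 14 effector genes, from 0 to 3 among late maturation genes, and from 0 to 1 among mature factors and among E proteins and Id inhibitors. Progenitor factors had 0 calls in each of these fits (0 to 2 at an unadjusted p under 0.05). The Zic2 to Zic1 ratio changed by -0.090 to 0.056 on the log2 scale, the sign turning when 7-week replicate 1 (0.056) or 79-week replicate 2 (0.0044) was left out.

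Same-numbered libraries are not said to share a mouse or day, so no pairing was assumed. Their deviations from the age means correlated at -0.11 over 15292 genes. With 2 libraries per age that correlation cannot show whether they were paired. With the replicate block 4 members were called, Zic2 added (-0.24, adjusted p = 0.0353), and 1396 genes in all. A crossed replicate block, added after that correlation was seen, called 3 members and 2014 genes. Counting error was small: 0.59% to 2.94% of each member's count per library, against a biological coefficient of variation of 9.43% over all genes.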
